A study of Homo sapiens with 4 samples.

Results

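OE33 is an established line of human esophageal adenocarcinoma, a gland-forming cancer of the lower esophagus. The data described here are the 2 arrays of OE33 cells transfected with a negative control pre-miR, of 4 arrays in the series. They were chosen by their sample titles, and they are not compared with the miR-223 arrays. Cells were grown in a standard medium with fetal bovine serum, and the control precursor was applied at 10 nM with a lipid reagent. Total RNA was taken 24 h later and hybridised to Illumina HumanHT-12 v4 bead arrays, on which each gene is read by 1 or more probes, each carried by many beads. The labels call both arrays biological replicate experiments. Every cell had passed through a transfection and no untransfected cells were included, so the profile is that of control-transfected cells of a single line.

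Normal esophagus is lined by stratified squamous epithelium, and adenocarcinoma at this site usually arises in Barrett's mucosa, where columnar cells of gastric and intestinal type replace it. Simple epithelial keratins, E-cadherin and columnar transcription factors such as the CDX family mark the columnar state, while TP63 and the basal keratins mark the squamous one. ERBB2, a receptor tyrosine kinase, is a known oncogene and drug target in this cancer. The question followed here was which lineage, receptor and oncogene transcripts these cells held above the background of the array.

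A probe was called detected when its deposited detection p was under 0.05 on both arrays, which means that fewer than 5% of the negative control beads were brighter. A gene was called detected when at least 1 of its probes was, not detected when all of its probes missed the threshold on both arrays, and unsettled otherwise. The median negative control signal was inferred from the array probes whose detection p lay nearest the middle of its range. It was 105.7 intensity units on replicate 1 and 108.1 on replicate 2, and the lowest detected signals were 124.2 and 126.2. Of 47321 probes, 18036 were detected on replicate 1 and 18916 on replicate 2, and 16381 or 34.6% on both. A gene that is not detected may still be transcribed below this limit, or be missed by its probe. The signal given for a gene is that of its brightest probe. Probe signals also depend on probe sequence, so they order the probes of the array and not the numbers of transcripts of different genes.

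In all, 12708 of 34301 named genes were detected (37.0%), 3264 were unsettled and 18329 were not detected. Among the 17403 genes that the reference annotation lists as protein-coding, 9288 were detected (53.4%), and their median signal was 142.4. The share detected grew with the number of probes, at 48.4% for protein-coding genes with 1 probe, 59.1% with 2 and 65.8% with 3. Of the 3916 protein-coding genes detected with several probes, 2197 or 56.1% also had a probe that was not detected on both arrays, so a positive call often rested on some of a gene's probes. Where every probe of a gene is required below, these 2197 of the 9288 drop out, and 53.4% is too high a background for such counts.

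Both arrays gave closely matching profiles. Over the 16381 probes detected on both, the log2 signals had a Pearson correlation of 0.988 and a Spearman correlation of 0.976, a description over probes that share the same arrays and a wide range of brightness. Replicate 2 was brighter by a median of 0.15 on the log2 scale, and the median absolute difference was 0.194. A signal rested on a median of 22 beads, and the median bead standard error was 5.19% of the signal on replicate 1 and 5.64% on replicate 2 for detected probes. The arrays differed by more than 2 combined bead standard errors for 42.1% of these probes, or for 34.3% once the median shift was removed, so the spread between the replicate experiments exceeded the bead error for many genes. On the deposited signals, 56 of the 16381 probes, or 0.342%, differed by more than 2-fold. The count depended on the scaling: it was 36 after removal of the median shift, 34 in the authors' normalized table and 278 after normexp background correction and quantile normalization.

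**Figure D1:**
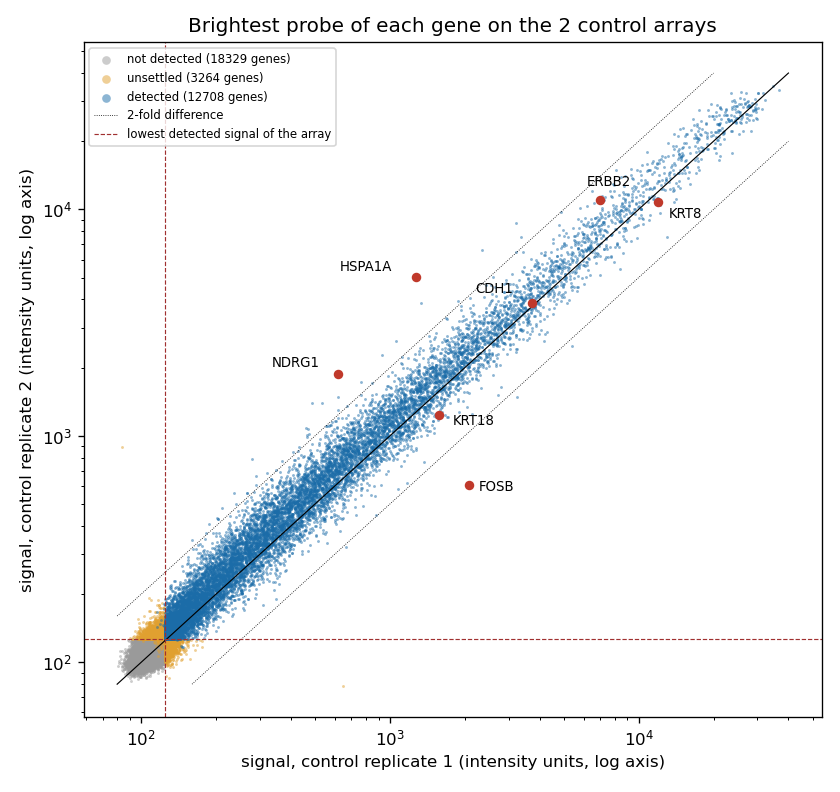
Signal of the brightest probe of each of 34301 genes on control replicate 1 (x axis) and control replicate 2 (y axis), in intensity units on log axes, coloured by detection status, with dotted lines at a 2-fold difference and dashed lines at the lowest detected signal of each array. Detected genes lie close to the diagonal, and HSPA1A, FOSB and NDRG1 are among the few outside the 2-fold lines.

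The 5 named genes with the largest differences between the replicates included known stress response genes. HSPA1A, an inducible heat shock protein, had 1277 units on replicate 1 and 5005 on replicate 2, a log2 difference of 1.97, or 1.88 after normexp correction and quantile normalization. Its near-identical paralog HSPA1B, whose transcripts the probes may share, had 2349.9 and 6590.4. NDRG1, a gene known to be induced by hypoxia and stress, had 619 and 1875, and CYBRD1, a ferric reductase, had 279.8 and 793. PFDN6, a prefoldin subunit, had 487 and 1393. FOSB, an immediate early transcription factor, went the other way with 2077 on replicate 1 and 609 on replicate 2, a log2 difference of -1.77, or -2.17 after the same correction. DUSP1, an immediate early phosphatase gene, and VCF1 stood farther apart still, but each was detected on 1 array only. DUSP1 had 84.0 units on replicate 1 and 895.6 on replicate 2, and VCF1 had 647.2 and 78.6. Both low readings lay under the inferred median negative control signal of their array, 105.7 units on replicate 1 and 108.1 on replicate 2. The 78.6 units of VCF1 were the lowest signal of any probe on replicate 2. Why these readings fell below background was not tested, so the size of both differences is uncertain. HSPA1B, DUSP1 and VCF1 were chosen after their values were seen.

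The 4 marker genes set beforehand for this part of the series, ERBB2, CDH1, KRT8 and KRT18, were all detected. CDH1, KRT8 and KRT18 also belong to the general epithelial list, so their detection does not identify this line. KRT8 and KRT18, which pair to form the intermediate filaments of simple epithelia, had 12007 and 10820.1 units for KRT8 and 1579 and 1232 units for KRT18 on replicates 1 and 2. CDH1, the E-cadherin that joins epithelial cells, had 3724 and 3876, with means over both arrays of 3800.2 ± 108 for CDH1, 1405 ± 246 for KRT18 and 11414 ± 839 for KRT8 (SD, n = 2). ERBB2 had 6963 and 11027 on its brightest probe, a mean of 8995 ± 2874 (SD, n = 2). Of its other probes, 1 was detected on neither array and 1 on replicate 1 only, at 125.3 units. GRB7, the neighbour of ERBB2 on chromosome 17 that is often gained with it, was chosen after its values were seen. It had 1928 and 3748 units, detected on all 3 probes and, like ERBB2, brighter on replicate 2. Replicate 2 was also the brighter array for 50 of the 56 probes that differed by more than 2-fold. Gain of the region was not tested.

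Epithelial genes were detected almost throughout. Of 29 general epithelial genes, 28 were detected (96.6%), against 53.4% of protein-coding genes, and the median signal over all 29 was 1405 units. KRT19, another simple keratin, had 27108 and 26389 units and was among the 20 brightest named genes. EPCAM, an epithelial adhesion molecule, had 11807 and 13114 units and was detected on all 3 of its probes. JUP, the junctional plakoglobin, had 19053 and 18483, and KRT7, a keratin of glandular ducts, had 6815 and 7004. The detected members included the claudins CLDN3, CLDN4 and CLDN7, the epithelial factors GRHL2, ELF3, EHF, OVOL1 and OVOL2, and the splicing regulator ESRP1. ESRP2, its paralog, was the 1 member not detected, at 109 and 106 units on a single probe with detection p-values of 0.388 and 0.614.

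Markers specific to stomach and intestine were sparse. Of 26 gastric genes, 3 were detected (11.5%), against 53.4% of protein-coding genes, 4 were unsettled and 19 were not detected. The median signal of the list was 113.2 units, near the negative control level. AGR2, a protein disulfide isomerase of mucus-secreting cells, had 1957 and 2644 units. SOX2, a foregut transcription factor, had 185 and 245 on the brighter of 2 detected probes, and ANXA10, a gastric annexin, had 168 and 201. The trefoil factor genes TFF1 (102 and 106 units) and TFF2 (103 and 109) lay at background, as did the gastric tight junction gene CLDN18 (107 and 121 on the brightest of 4 probes) and the gland mucin MUC6 (123 and 110.2). GATA4, GATA5 and GATA6, endodermal factors active in stomach and in many tumours of this type, were also not detected.

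Of 43 intestinal genes, 9 were detected (20.9%), against 53.4% of protein-coding genes. A further 3 were unsettled and 31 were not detected, with a list median of 110.3 units. CDX2, the homeobox factor that drives intestinal differentiation, was detected on its 1 probe at 343 and 383 units. FOXA1, an endodermal forkhead factor, had 1396 and 1317. CEACAM6, a cell adhesion antigen of colon and many carcinomas, had 1468 and 2229 units, DPP4, a brush border peptidase, had 169 and 183, and ASCL2, a factor of crypt stem cells, had 167 and 179. FOXA2 and TSPAN8 were also detected. In contrast, CDX1 (105 and 105), the brush border protein gene VIL1, the goblet cell mucin MUC2 (114 and 123) and the goblet cell trefoil factor TFF3 (106 and 112) were not detected. HNF4A, a nuclear factor of intestine and liver, KRT20, LGALS4 and CEACAM5 were likewise not detected. The cells thus held the CDX2 and FOXA1 messages while most of the listed differentiation products of intestine lay below the detection limit.

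Squamous genes gave a mixed picture, with 10 of 35 detected (28.6%), against 53.4% of protein-coding genes. A further 3 were unsettled and 22 were not detected, and the list median was 114.7 units. TP63, the master regulator of stratified epithelia, had 110.0 and 113 units on the brightest of 3 probes, with detection p-values of 0.344 and 0.335. KRT5, the basal keratin, was at 102 and 96, KRT6A at 116 and 104 and KRT6B at 115 and 119.9. Other squamous keratins were detected, among them KRT14, the basal partner of KRT5, and KRT16, both weakly. KRT14 stood near the limit at 128.4 and 146.6 units on a single probe, and KRT16 had 154.9 and 169.1 on its brighter probe. KRT13, a keratin of the suprabasal esophageal lining, had 1867 and 2123 units. KRT15, a basal keratin, had 479.6 and 656, and KRT10, a suprabasal one, had 1614 and 1833. The desmosomal cadherins DSC2 (509 and 668) and DSC3 (273 and 325) were each detected on both of their probes, and SPRR1A, a cornified envelope protein gene, had 282 and 309.9.

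**Figure D2:**
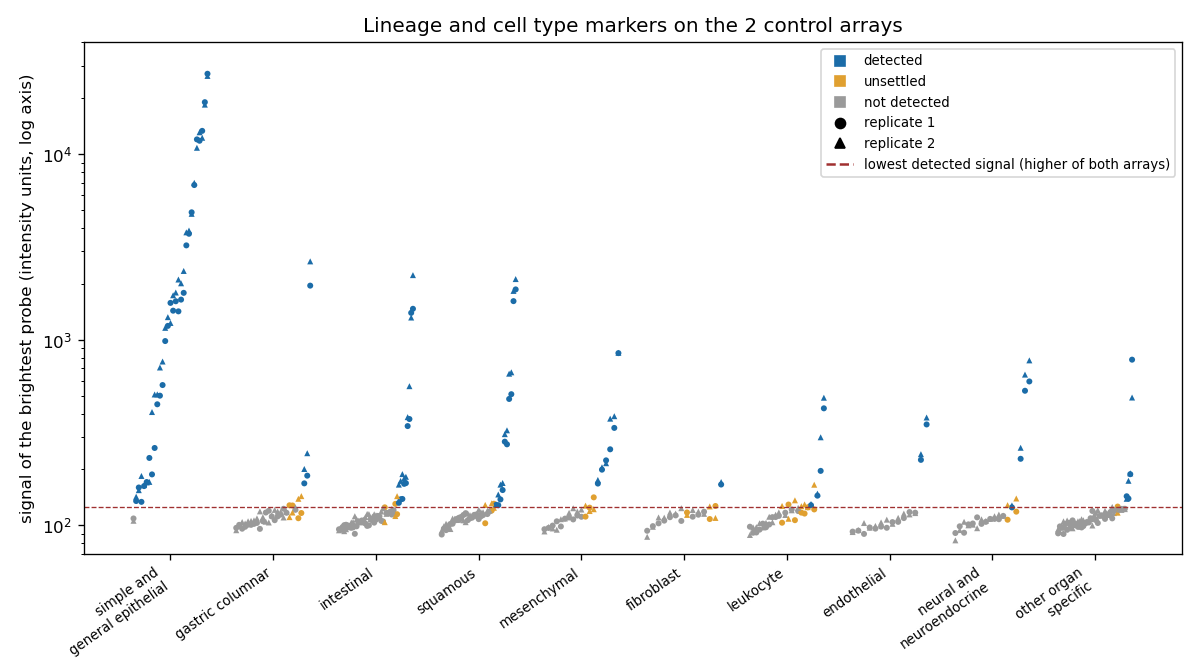
Signal of the brightest probe of each marker gene (log axis, intensity units) for 10 lineage and cell type lists, sorted by mean signal within each list, with circles for control replicate 1 and triangles for control replicate 2 and colours for detection status. The epithelial list reaches 27108 units with 28 of 29 genes detected, while most genes of the other lists lie at or below the dashed detection limit.

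Markers of fibroblasts, endothelium and leukocytes were mostly at background, each list with a share detected below the 53.4% of protein-coding genes. Fibroblast genes had 1 of 14 detected (7.14%), the smooth muscle actin ACTA2 at 166 and 171 units, while the fibrillar collagens COL1A1 (111 and 121), COL1A2 (111 and 117) and COL3A1 (113 and 116) and the proteoglycan DCN were not detected. Endothelial genes had 2 of 14 detected, the TGF-beta co-receptor ENG (349.6 and 381) and the adhesion molecule ESAM (225 and 242), and PECAM1 (118 and 114), VWF (89.9 and 103), CDH5 and KDR were not. Leukocyte genes had 4 of 24 detected, the lysosomal protein CD68 (427 and 487), CD14 (196 and 298), LYZ (144 and 148) and FCGR3A (128 and 130.3), and a further 7 were unsettled. PTPRC, which encodes the leukocyte common antigen, was not detected on any of 4 probes, the brightest at 117 and 114, and CD3D, CD3E and CD4 were not detected.

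Mesenchymal genes, which many carcinoma lines express to some degree, had 6 of 19 detected (31.6%), against 53.4% of protein-coding genes. AXL, a receptor kinase of invasive cells, had 847 and 850.3 units, S100A4 had 335 and 387 and the actin-binding protein gene CALD1 had 257 and 376. SNAI2, a transcription factor that represses E-cadherin, had 224 and 216, and VIM, vimentin, had 199.5 and 206 on 1 of 2 probes. ITGA5, the fibronectin receptor subunit, had 168 and 176. CDH2, ZEB1, ZEB2 and SNAI1, the N-cadherin gene and further factors that repress E-cadherin, were not detected. Detected mesenchymal members therefore stood beside an E-cadherin signal of 3724 and 3876 units.

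Of 42 genes specific to other organs, 4 were detected (9.52%), against 53.4% of protein-coding genes, with a list median of 111.4 units. KLK3, the prostate-specific antigen gene, had 781 and 488 units on 1 of 3 probes. ALB, serum albumin, had 189 and 191 on 1 of 2 probes, PMEL, a melanosome protein gene, had 139 and 174, and CYP2E1, a liver cytochrome, had 143 and 139. APOA1 (109 and 108), FGB (103 and 121), AFP (101 and 102) and CYP3A4 (103 and 100.2), all typical of liver, were not detected. Of 18 neural and neuroendocrine genes, 4 were detected (22.2%), also below the share of protein-coding genes. GAD1, the glutamate decarboxylase that makes GABA, had 531 and 649 units and was detected on all 3 probes, as was MBP, myelin basic protein, at 596 and 774. INSM1, a neuroendocrine factor, stood just above the limit at 125 and 128. The neuroendocrine markers CHGB (99 and 94), SYP (91 and 83) and NEUROD1 (108 and 108) were not detected.

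Promoter sequences illustrate the genes on both sides of the detection limit. They are the first 3 detected epithelial genes and the first 3 undetected genes of other organs with an entry in a promoter table from RefSeq (GRCh38.p14), and each run holds the 150 bases before the annotated transcription start, 5′ to 3′ on the gene's strand. MUC1 and FGB each had 2 such windows, and the first listed was used. CG dinucleotides and the TATA motif TATAAA are in capitals. KRT8 lies at chr12:52926470-52926619 (minus strand), MUC1 at chr1:155192916-155193065 (minus strand), CLDN3 at chr7:73770271-73770420 (minus strand), FGB at chr4:154562830-154562979 (plus strand), AFP at chr4:73436071-73436220 (plus strand) and CYP3A4 at chr7:99784185-99784334 (minus strand).
KRT8: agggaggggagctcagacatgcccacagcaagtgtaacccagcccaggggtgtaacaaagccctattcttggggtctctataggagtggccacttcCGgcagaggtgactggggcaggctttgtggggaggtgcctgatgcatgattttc
MUC1: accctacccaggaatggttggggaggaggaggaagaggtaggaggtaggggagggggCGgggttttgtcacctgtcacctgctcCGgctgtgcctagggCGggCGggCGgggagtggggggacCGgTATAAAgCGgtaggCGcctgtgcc
CLDN3: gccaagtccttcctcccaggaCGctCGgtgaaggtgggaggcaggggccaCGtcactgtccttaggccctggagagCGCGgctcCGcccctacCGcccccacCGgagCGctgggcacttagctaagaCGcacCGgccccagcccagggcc
FGB: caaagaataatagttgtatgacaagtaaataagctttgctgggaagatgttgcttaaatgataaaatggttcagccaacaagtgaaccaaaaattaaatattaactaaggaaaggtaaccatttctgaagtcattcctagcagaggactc
AFP: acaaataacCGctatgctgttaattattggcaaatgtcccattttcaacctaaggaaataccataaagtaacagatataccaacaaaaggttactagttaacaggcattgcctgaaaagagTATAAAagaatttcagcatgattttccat
CYP3A4: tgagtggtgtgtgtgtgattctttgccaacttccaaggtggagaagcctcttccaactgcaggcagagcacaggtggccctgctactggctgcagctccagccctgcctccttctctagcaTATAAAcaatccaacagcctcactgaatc

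In the detected set, KRT8 held 1 CG in this window, MUC1, a membrane mucin, held 8 and CLDN3, a claudin of tight junctions, held 11. In the undetected set, FGB (fibrinogen beta chain) and CYP3A4 (a liver cytochrome) held 0 and AFP (alpha-fetoprotein) held 1. Across 22199 such windows of protein-coding genes the median was 11, and 5.97% held none. TATAAA, searched on the gene's strand, was found in MUC1, AFP and CYP3A4, and 4.54% of all windows held it. The GC box GGGCGG, searched on both strands, was found in MUC1 and CLDN3, and 47.2% of all windows held it. A comparison of base composition between all detected and all undetected genes was not made: chromosome 8 aside, a promoter was matched for 85.7% of detected but for 79.3% of undetected protein-coding genes, under the minimum of 80% set for such a check.

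Receptor tyrosine kinases are the membrane receptors through which growth factors drive carcinoma cells. Of 58 receptor kinase genes, 26 were detected (44.8%), 8 were unsettled and 24 were not detected, a share below the 53.4% of protein-coding genes. After ERBB2, the brightest probe was that of MET, the hepatocyte growth factor receptor, at 4046 and 4725 units. LMTK3, a less studied member, had 2329 and 2694, DDR1, a collagen receptor, had 1244 and 2178, RYK, a Wnt co-receptor, had 1298 and 1573 on the brightest of 3 detected probes, and EPHA2, an ephrin receptor, had 1190.0 and 987. The ERBB partners EGFR and ERBB3 were detected, while ERBB4 (105 and 99) was not. FGFR3 and FGFR4 were detected, FGFR1 (118 and 100.3 on the brightest of 3 probes) and FGFR2 (98 and 106) were not, and IGF1R (113 and 123) was not. With the demand that every probe of a gene be detected, 13 of the 58 remained, and ERBB2 was not among them. The 53.4% does not apply to that count. KIT, FLT3, the vascular receptors FLT1, KDR and FLT4, and PDGFRB were among the others not detected.

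**Figure D3:**
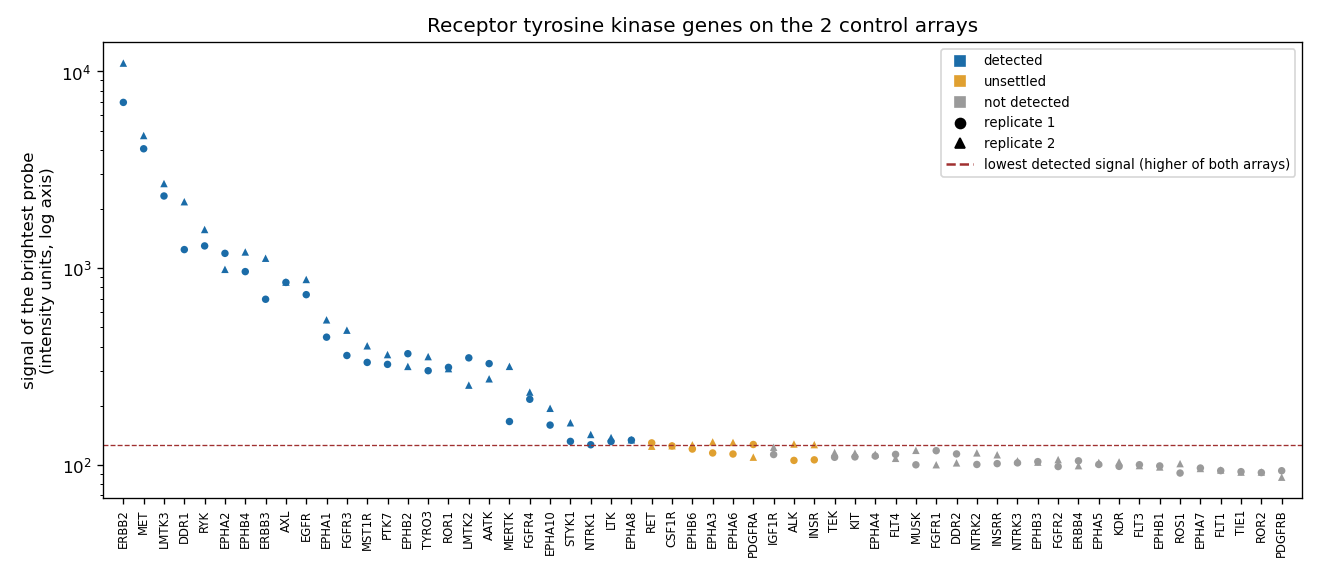
Signal of the brightest probe (log axis, intensity units) of 58 receptor tyrosine kinase genes on control replicate 1 (circles) and control replicate 2 (triangles), ordered by mean signal and coloured by detection status. ERBB2 and MET lie highest, 26 genes are detected, and 24 lie below the dashed detection limit on both arrays.

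Of 39 growth factor genes, which include ligands of these receptors, 19 were detected (48.7%), near the 53.4% of protein-coding genes, 4 were unsettled and 16 were not. TGFA and EREG, ligands of EGFR, had 1645 and 1448 units for TGFA on the brighter of 2 detected probes and 606 and 678 for EREG. EGF (118 and 108) and AREG (98 and 105), ligands of the same receptor, were not detected. The ephrins EFNB2 (1887 and 1775) and EFNA1 (953 and 1091), which bind ephrin receptors, and the vascular factor VEGFB (2775 and 3195) were detected, as was the stress cytokine GDF15 (1135 and 904). The neuregulins NRG1 (117 and 119 on the brightest of 5 probes) and NRG2 (91 and 102), ligands of ERBB3 and ERBB4, were not detected, while NRG4, a ligand of ERBB4, was. HGF, the ligand of MET, was not detected.

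Nuclear receptors, transcription factors that bind steroids, retinoids, fatty acids and other small molecules, had 19 of 48 genes detected (39.6%). The share over all protein-coding genes was 53.4%. NR2F2, an orphan receptor also called COUP-TFII, had 1636 and 1729 units on the brighter of 2 detected probes. PPARG, a fatty acid receptor, had 1282 and 1796 with 2 of 4 probes detected, RXRA, the common partner of many receptors, had 1181 and 1336, and RARA, a retinoic acid receptor, had 658 and 584 on 1 of 4 probes. NR2F6 and ESRRA, orphan receptors, had 989 and 1519.5 units for NR2F6 and 669 and 925 for ESRRA. The estrogen receptor genes ESR1 (104 and 108) and ESR2 (119 and 115), the progesterone receptor PGR (107 and 104) and the retinoic acid receptor RARB (109 and 126 on the brightest of 3 probes) were not detected.

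Bile reflux is a known exposure of Barrett's mucosa, and genes of bile acid handling were looked at for that reason. Of 20 such genes with a probe, 6 were detected, a share below the 53.4% of protein-coding genes. ABCC3, an exporter of conjugated bile acids, had 1411 and 1555 units on 1 of 2 probes, ABCC4, a related exporter, had 432 and 552, and FABP6, the ileal bile acid binding protein, had 186 and 238 on the brighter of 2 detected probes. SLC27A5, a bile acid ligase gene, had 176 and 311. The receptors VDR (126 and 184) and NR1I2 (124 and 131) were detected near the limit. The bile acid receptors NR1H4 (92 and 105) and GPBAR1 (102 and 116), the corepressor NR0B2 (99 and 95) and the enterokine FGF19 (117 and 106) were not detected. The uptake transporter SLC10A2 was not detected either.

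Cytokine receptors had 24 of 41 genes detected (58.5%), a share near the 53.4% of protein-coding genes. With every probe required 14 were left, a count to which the 53.4% does not apply. Both chains of the interferon gamma receptor were detected, IFNGR1 at 2211 and 1852 units and IFNGR2 at 2629.7 and 3016. The alpha chain of the GM-CSF receptor, CSF2RA, had 1664 and 2623 with 2 of 4 probes detected, while its partner CSF2RB was not detected. IL10RB (752 and 1126), TNFRSF1A (747 and 841) and IL13RA1 (598 and 612), chains of the receptors for interleukin 10, tumor necrosis factor and interleukin 13, were also among the brightest. IL6ST, the shared gp130 chain, had 109 and 108 units on the brighter of 2 probes and was not detected, as were IL6R (119 and 122), IL1R1 (104 and 109) and IL2RB (124 and 121).

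Of 20 chemokine receptor genes with a probe, 2 were detected (10.0%), against 53.4% of protein-coding genes. CCR6, the receptor of the chemokine CCL20, had 15647 and 15373 units on 1 probe. Its other 2 probes disagreed: they had 113.9 and 129.8 units and 115.4 and 112.2 units, and neither was detected on both arrays. CXCR1 stood just above the limit at 132 and 129.7, and CXCR4 (103 and 112 on the brightest of 3 probes), CXCR3 (98 and 111), CXCR6 (99.6 and 94) and ACKR3 (95 and 99) were not detected. Among innate sensors, 7 of 19 with a probe were detected (36.8%), also below the share of protein-coding genes. Of the 10 toll-like receptor genes 0 was detected, with TLR3, TLR5 and TLR6 unsettled. TLR1 (96 and 97), TLR2 (97 and 87), TLR4 (95 and 104) and TLR7 (88 and 98) lay at background. The adaptors TICAM1 (1028 and 912), MAVS (349 and 374) and MYD88 (253 and 296) and the sensors NOD1 (226 and 233), IFIH1 (176 and 262) and RIGI (141 and 201) were detected.

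Oncogene transcripts were widely detected, in 40 of 55 genes (72.7%), against 53.4% of protein-coding genes, although 29 of the 55 have several probes and so more chances of detection. CCND1, the cyclin D1 gene, had 7273 and 6655 units, and its kinase partner CDK4 had 3918 and 4995. BCL2L1, which encodes the survival protein BCL-XL, had 7271 and 6655 and MYC, the growth-promoting transcription factor, had 6152 and 5878, each on the brighter of 2 detected probes. The near-equal values of CCND1 and BCL2L1 come from separate probes, with 20 and 22 beads for CCND1 and 17 and 24 for BCL2L1. The small GTPase genes RAC1 and RHOA had 6821 and 6420.1 units for RAC1 and 4014 and 4255 for RHOA. NRAS and HRAS were detected, as were CCNE1 and CDK6. The MYC relatives MYCN (115 and 111) and MYCL (121 and 111) were not detected, and neither were the kinases BRAF (116 and 119) and AKT2 (117 and 119.8), each read by 1 probe. MDM2, BCL2 and TERT were unsettled.

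Tumor suppressor transcripts were detected in 33 of 43 genes (76.7%), against 53.4% of protein-coding genes, and 24 of the 43 have several probes. KLF6, a zinc finger factor, had 5391 and 2486 units with a clear spread between the arrays. CDKN2A, which encodes the cell cycle inhibitor p16, had 2576 and 2533 on the brightest of 3 probes, 2 of them detected. SMARCA4, a chromatin remodeler, had 2356 and 2021, and the TGF-beta pathway genes SMAD3 and TGFBR2 had 1613 and 1604 units for SMAD3 and 1312 and 1481 for TGFBR2. SMAD4, RB1 and ARID1A were detected. APC, the Wnt pathway scaffold, lay just under the limit at 122 and 125 units with detection p-values of 0.0805 and 0.0662, and TGFBR1 (104 and 98), PTCH1 (99 and 126) and DCC (95 and 106) were not detected. With every probe of a gene required, 16 of the 43 were detected. That rule also drops 2197 of the 9288 detected protein-coding genes, so 53.4% is too high a background for this count. FHIT, a fragile site gene often altered in this cancer, and RUNX3 were unsettled. A message level says nothing about whether the encoded protein is intact.

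Of the Notch, Wnt and Hedgehog pathways, which guide cell fate in development, Notch had the highest share of genes detected. The Notch share was above the 53.4% of protein-coding genes. A larger part of the Notch genes had several probes, 13 of 25, against 20 of 57 Wnt and 3 of 16 Hedgehog genes. Several probes give more chances of detection. With every probe required, 10 Notch, 19 Wnt and 2 Hedgehog genes were left. For these counts 53.4% is too high a background, as that rule also drops 2197 of the 9288 detected protein-coding genes. Notch genes had 17 of 25 detected (68.0%), including the receptors NOTCH1, NOTCH2 and NOTCH3 and the ligands JAG1 and JAG2, while NOTCH4 and the DLL ligands DLL1, DLL3 and DLL4 were not. HES4, a target of the pathway, had 2076 and 2319 units and NCSTN, a gamma-secretase subunit, had 1525 and 1649.9. NUMB, a Notch inhibitor, had 863 and 1171, and the fringe glycosyltransferases RFNG and LFNG had 793 and 909.8 units for RFNG and 526 and 768 for LFNG. ADAM10, the protease that first cuts the receptors, had 502 and 602, and MFNG, the other fringe gene, was not detected.

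Wnt pathway genes had 24 of 57 detected (42.1%), against 53.4% of protein-coding genes. DKK1, a secreted Wnt antagonist, had 9341 and 7228 units on the brighter of 2 detected probes. AXIN2, a scaffold and common target of the pathway, had 597 and 592, AXIN1 had 1133 and 1043, LRP5, a co-receptor, had 939.9 and 1314, and WLS, the Wnt secretion factor, had 613 and 905 with all 5 probes detected. GSK3B, a kinase of the destruction complex, had 666 and 664. Of the 17 listed Wnt ligands, WNT3 and WNT7B were detected, and LGR5 (106 and 119) and LRP6 (106 and 119) were not. Hedgehog genes had 2 of 16 detected (12.5%), the transducer SMO (131 and 152) and the transcription factor GLI2 (207 and 190.3). The ligands SHH, IHH (117 and 116) and DHH (101 and 117) were not detected.

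Mucins coat and protect glandular surfaces, and 3 of 15 were detected, a share below the 53.4% of protein-coding genes. All 3 are membrane-bound in their main form. With every probe required 1 was left, a count to which the 53.4% does not apply. MUC4 had 838 and 881 units with 2 of 5 probes detected, MUC20 had 798 and 868 and MUC1 had 188 and 408, the last with a wide spread between arrays. The secreted gel-forming mucins MUC2, MUC5B (96 and 112) and MUC6 were not detected, and MUC5AC was unsettled.

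Antigen presentation genes divided by class. In the whole list of presentation genes and checkpoint ligands 21 of 33 were detected (63.6%), against 53.4% of protein-coding genes. Several probes read 15 of the 33. B2M, the light chain of class I molecules, had 9298 and 15033 units on the brighter of 2 detected probes, and HLA-E had 1100.2 and 1411. TAPBP, the peptide loading factor tapasin, had 1097 and 1464. Of the class II genes, HLA-DRA and the invariant chain CD74 were detected, while HLA-DRB1, HLA-DPA1 and HLA-DQA1 and their activator CIITA were not. HLA-DRA had 199.7 and 206.2 units and CD74 had 138.9 and 187.1 on their brightest probes. The other probes of both genes were not detected on both arrays. Of the immune checkpoint ligands, CD276 had 1032 and 1264 units with 2 of 4 probes detected, and CD274, which encodes PD-L1, and PDCD1LG2 were not detected. CD24, a surface glycoprotein, had 6852 and 6360.5. HLA genes are close in sequence and vary between people, so single probes can miss or share them.

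Of 31 surface proteins that are targets of antibodies or cell therapies, 18 were detected (58.1%), near the 53.4% of protein-coding genes. Besides ERBB2, EPCAM and MET they included F3, tissue factor, at 5681 and 5068 units, and CD44, the hyaluronan receptor, at 3656 and 4516 on the brightest of 3 detected probes. CEACAM5 (99 and 115), MUC16 (123 and 110.4), CLDN18 and CLDN6 (95 and 95) were not detected. Cancer testis antigens, germline genes that tumors can switch on, had 1 of 30 with a probe detected (3.33%), ACTL8 at 2382 and 2160.3 units on its 1 probe. MAGEA1, MAGEA3, MAGEA4 and MAGEA10 were not detected on any probe (112 and 124 on the brighter probe of MAGEA1), and MAGEA6, MAGEC2, GAGE1 and SSX2 were unsettled. Many genes of this group are close copies of each other, so a probe can read several of them.

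Genes of cell division were detected in full, 27 of 27 with a probe, against 53.4% of protein-coding genes. The median signal of the list was 1275 units. MCM7, a subunit of the replicative helicase, had 14639 and 12366 units, UBE2C, a mitotic ubiquitin-conjugating enzyme, had 7049 and 7107, and PCNA, the polymerase clamp, had 5375 and 5278. MCM3 (5218 and 5390.3), CDC20 (3927 and 4375) and MCM6 (3612 and 3229) followed. The 23 housekeeping genes were also all detected.

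Xenobiotic metabolism genes had 29 of 45 detected (64.4%), against 53.4% of protein-coding genes, and 23 of the 45 have several probes. GSTP1, a glutathione transferase, had 20357 and 19609.8 units. ALDH1A3, which makes retinoic acid, had 8812 and 11041 on the brighter of 2 detected probes, while its relative ALDH1A1 was unsettled. NQO1, a quinone reductase, had 4348 and 4709, the aldo-keto reductases AKR1B1 and AKR1C2 had 2806 and 2734 units for AKR1B1 and 1863 and 1674 for AKR1C2, and AHR, the aryl hydrocarbon receptor, had 2205 and 2446. AKR1C2 was detected on 1 of 6 probes and has near-identical neighbours, so its signal may be shared with them. CYP1A1 (113 and 115), the classical target of AHR, was not detected, nor were CYP1A2 and CYP2B6. In the prostaglandin pathway 8 of 21 genes were detected (38.1%), below the 53.4% of protein-coding genes. The inducible cyclooxygenase PTGS2 had 229 and 253 units with both probes detected, and PTGS1 (113 and 106 on the brighter of 2 probes) was not detected. The prostaglandin E synthases PTGES (2228 and 2744), PTGES2 (2003 and 2229) and PTGES3 (3148 and 4160.3) were detected, as was the lipoxygenase ALOX5 (1106 and 1174) on 1 of 3 probes. TBXAS1, thromboxane synthase, had 143 and 138.

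**Figure D4:**
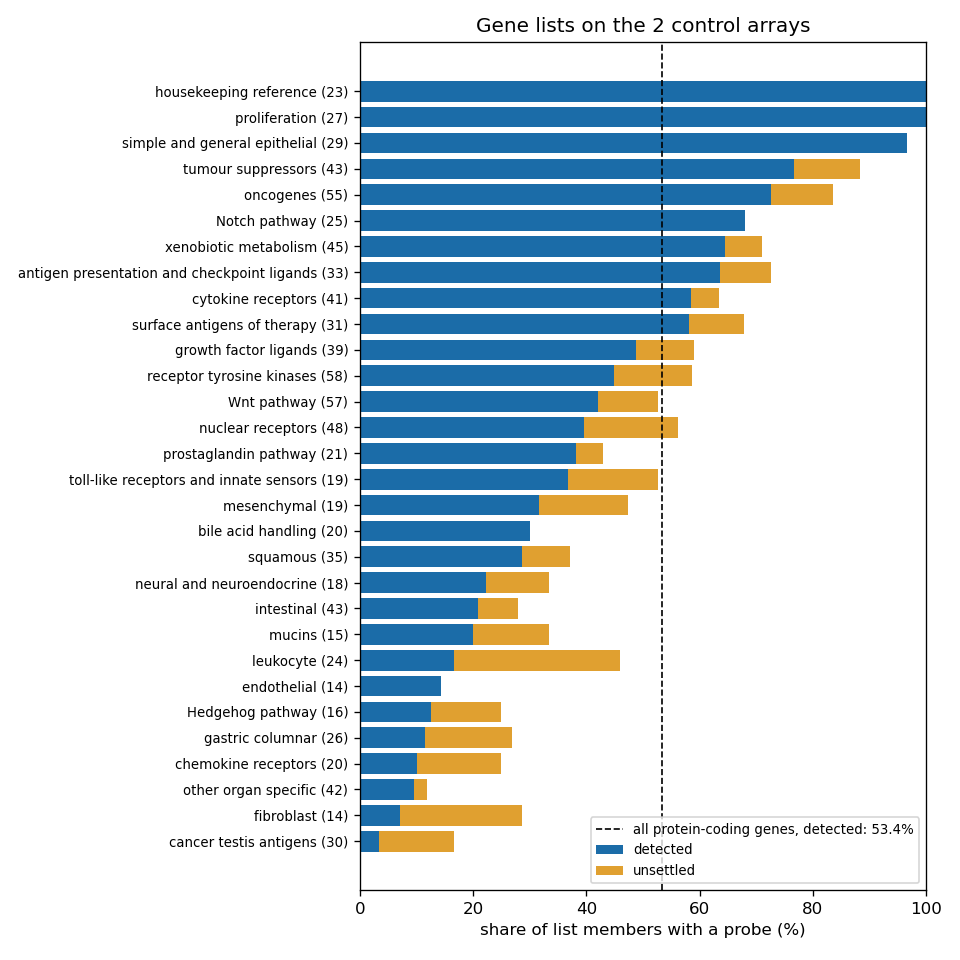
Share of the members with a probe (x axis, %) that were detected (blue) or unsettled (orange) on both control arrays for 30 gene lists, with the number of members in brackets and the 53.4% of all protein-coding genes as a dashed line. Proliferation, housekeeping and epithelial genes stand at or near 100%, and cancer testis, fibroblast and other organ genes lie lowest.

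The brightest named genes were mostly those of protein synthesis and the cytoskeleton. The 100 brightest probes held 11.1% of the summed signal of all probes. Of these 100, 21 read cytosolic ribosomal protein genes, and 52 carried names of unplaced loci or names that the reference annotation does not hold. The 20 brightest named genes included the elongation factor EEF1A1 with 31738 and 32633 units and the initiation factor EIF1 with 30302 and 32517. The ribosomal genes RPL41, RPLP1, RPL6, RPS12, RPL37A and RPS29 were among the first 20, as were the actins ACTG1 (29457 and 27849) and ACTB (27669.5 and 26023). Also among them were TMSB4X (25781 and 33084), a peptide that binds actin, TPT1 (24203 and 30554), a growth-related protein gene, and RACK1 (29605 and 25314), a ribosome-bound scaffold. FTH1P16, a ferritin pseudogene, and PPIAL4A, a copy of the cyclophilin gene, were also in the group, and their probes may read the parent transcripts. When signals were averaged over the probes of a gene, 6 of these 20 genes were still among the first 20.

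The probes of 2 further genes in that group disagreed. LAIR1, an inhibitory receptor of immune cells, had 29265 and 30841 units on 1 probe, while its other probe had 108.4 and 114.7 and was not detected. F2R, the thrombin receptor, had 29640.5 and 27820.1 on 1 probe and 184.8 and 209.9 on the other, detected on both. In all, 10 protein-coding genes with several probes exceeded 10000 units on average while only 1 of their probes was detected, among them TMSB4X and CCR6. What these bright probes read was not tested, as probe sequences were not used here.

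Gene families, grouped by name after the values were seen, ranged widely on either side of the 53.4% of protein-coding genes. All 77 mitochondrial ribosomal protein genes were detected, as were 77 of 80 cytosolic ones (96.2%), where RPL10, RPL10L and RPL3L were not, and 37 of 39 proteasome subunits, where the testis form PSMA8 and the thymus form PSMB11 were not. Of 36 complex I subunits, 34 were detected (94.4%). At the other end, 9 of 370 olfactory receptor genes were detected (2.43%), with a further 17 unsettled, and 1 of 76 keratin-associated protein genes of hair (1.32%). None of 13 interferon alpha genes and none of 10 voltage-gated sodium channel genes was detected, and the taste receptors had 0 of 25 detected and 2 unsettled. Olfactory receptors are best known from the nose, and 9 of their 437 probes (2.06%) were detected on both arrays.

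Transcription factor families lay between, below the 53.4% of protein-coding genes. Of 39 HOX genes, 17 were detected (43.6%), with the brightest probes for HOXB8 (2011 and 2441 units), HOXB5 (1574 and 1993) and HOXA10 (1321 and 1374), which pattern the body axis. Of 19 SOX genes, 8 were detected, led by SOX9 (1177 and 1079), a factor of glandular progenitors, and SOX4 (1066 and 1154). Of 49 forkhead genes, 19 were detected, led by FOXO3 (4158 and 4486), FOXC1 (3741 and 3601) and FOXQ1 (3479 and 3711). Collagens had 5 of 44 detected (11.4%), and their brightest probes were those of COL17A1, a collagen of hemidesmosomes, and COL18A1, a collagen of basement membranes.

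**Figure D5:**
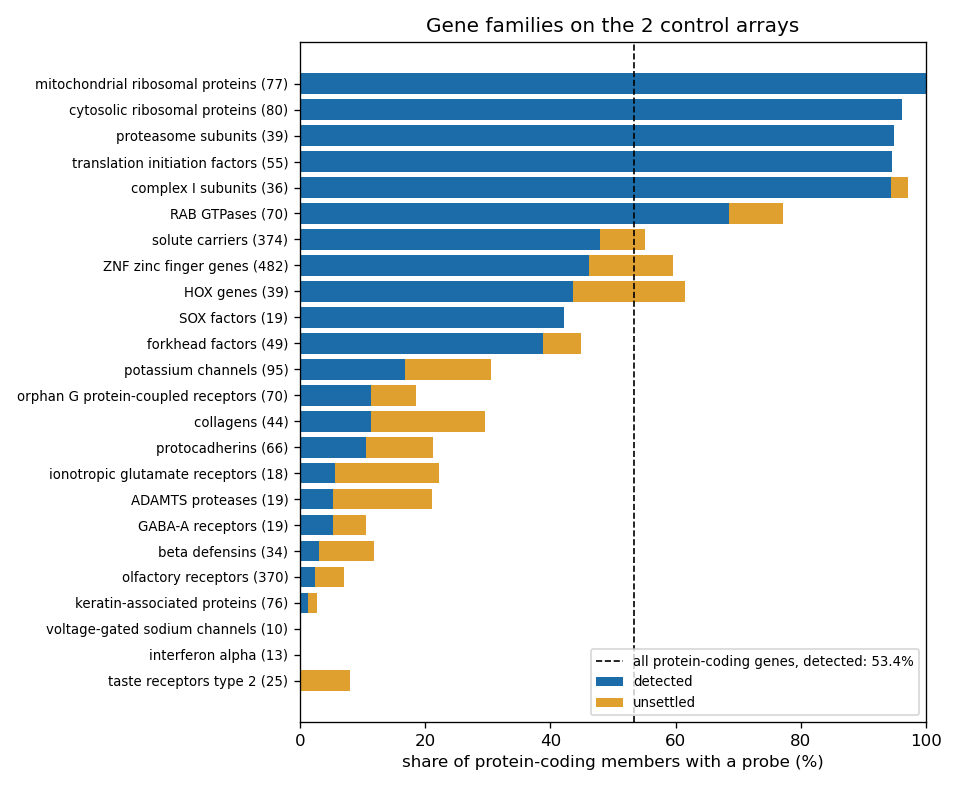
Share of protein-coding members with a probe (x axis, %) that were detected (blue) or unsettled (orange) on both control arrays for 24 gene families, with the number of genes in brackets and the 53.4% of all protein-coding genes as a dashed line. Families of translation, respiration and the proteasome lie at 94.4% or above, and olfactory and taste receptors, keratin-associated proteins, interferon alpha, beta defensins and sodium channels lie below 3%.

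By kind of gene, the share detected over all named genes was 37.0%. It was 18.0% for long non-coding RNA genes (63 of 350) and 44.3% for small nucleolar RNA genes (124 of 280). For microRNA genes it was 3.74% (21 of 562), and their probes read longer transcripts of the locus and not the mature microRNA. Among the autosomes and chromosome X, the share of protein-coding genes detected ran between 38.9% of 742 on chromosome X and 62.5% of 720 on chromosome 16. Chromosome 17, which carries ERBB2, stood at 56.0% of 1025 genes, near the 53.4% of all protein-coding genes.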

How the data were processed

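The 2 negative control arrays were grouped by their titles, and the members and lists were chosen with earlier results of these data known. The following values are deposited for each probe and array, per the file headers: the average bead signal, a linear intensity not normalized between arrays; the bead standard error, on the same signal scale; the bead number; and the detection p-value. Every deposited p-value is a whole multiple of 1 over 770 (within 0.01 of a step), so 770 negative control types are taken to lie behind it. The submitters' processing notes list GenomeStudio, BeadStudio and Partek, with neither roles nor versions. The intensity values were used as deposited, without background correction or normalization. Detection is read within each array, while differences between the arrays carry the median shift of 0.15 on the log2 scale. The authors' deposited value table, also an intensity and quantile normalized (sorted columns differ by at most 0.228%), served as an alternative, as did normexp correction with quantile normalization (neqc in limma 3.58.1, R 4.3.3). The other steps ran in Python 3.11.15 with pandas 2.3.3, numpy 2.4.6 and matplotlib 3.10.9. No genome build of the probes is given in the sources used here.

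Gene names were updated through RefSeq (GRCh38.p14): 26824 probes held a current symbol, 3163 a synonym of 1 gene, 17280 kept their name, and 54 names read as dates were left out. The 30 lists hold 889 distinct genes, of which 401 were detected. Values are given for the 6 brightest detected members of a list and for undetected ones among the first 4 in list order, for the 20 brightest genes with a symbol and for the 5 with the largest difference between arrays. KRT14, KRT16, HLA-DRA and CD74 were given values after those were seen. Some genes that this rule takes are not reported here, though counts over lists hold them. The gene families were chosen after the values were seen. No groups were compared and no test was run across genes. With 2 arrays, the number of arrays limits the precision. The labels do not say whether both RNA samples came from separately grown cultures. Alternatives were a detection p of 0.01, each array alone, a signal of 1.5 times background, every probe of a gene, gene names as in the file and the other normalizations.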

Additional observations from a re-analysis of the deposited data

How the results depend on the processing

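The calls rest on 2 arrays of 1 cell line, on probes of unequal affinity and on a detection limit near 124.2 and 126.2 units; a gene under that limit is not shown to be absent. No paired analysis was possible because no groups are compared and no test is run. The comparison of promoters between detected and undetected genes and its alternative were not run, since too few undetected genes had a promoter.

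Detected on both arrays were 16381 probes and 12708 genes, against 14914 and 11657 at a detection p of 0.01, 12561 and 9985 at 1.5 times background, and 18036 to 18916 and 14023 to 14691 on 1 array alone. With every probe of a gene required, 9902 genes were detected, and among genes with 1 probe only, a choice made after seeing the data, 7874. Requiring every probe left 0 leukocyte, 2 other organ, 13 receptor kinase, 12 nuclear receptor, 14 cytokine receptor, 1 chemokine receptor, 16 tumor suppressor, 1 mucin, 10 Notch, 3 bile acid and 10 surface antigen genes. At 1.5 times background, 6 squamous, 2 leukocyte, 2 other organ, 1 chemokine receptor, 1 Hedgehog and 5 prostaglandin genes were left, and at a p of 0.01, 1 chemokine receptor and 1 Hedgehog gene. With gene names as in the file, 4 innate sensors were detected. Either array alone gave 5 gastric, 2 to 3 fibroblast, 6 to 9 leukocyte, 3 to 4 chemokine receptor, 4 to 5 mucin and 3 to 4 cancer testis genes. A limit at the 95th percentile of the olfactory receptor probes, also chosen after seeing the data, gave 407 list genes against 401. All other list counts stayed within 1.5 times under these settings. The median absolute log2 difference between arrays was 0.194, against 0.114 over all probes, 0.24 after neqc and 0.158 in the authors' table. Of the 20 brightest genes, 6 remained when probes were averaged within a gene.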
